A study of Homo sapiens with 12 samples.

Results

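Peroxisome genes of human liver spheroids were examined, defined as the genes that the annotation column of the expression table assigns to the KEGG pathway Peroxisome. Of 80 such genes among the 16705 in the table, 13 were left out that also take part in branched-chain amino acid degradation or are acyl-CoA synthetases of the ACSL family, SLC27 fatty acid transporters, PRDX1, GSTK1, MVK or PMVK. This left 67 genes. The rule itself used no measured value, but the members were chosen with earlier results of these data known. Each spheroid was a co-culture of 2 cell lines: C3A, which descends from HepG2 liver cancer cells and stands in for hepatocytes, made up most of the cells, and LX-2, which stands in for the fibre-forming stellate cells of the liver, the rest. Many spheroids were pooled for each library. In all, 4 groups of 3 libraries each were sequenced: spheroids kept untreated for 24 h, spheroids exposed to 1% TPN for 24 h, spheroids kept untreated for 144 h and spheroids exposed to 1% TPN for 144 h. TPN, total parenteral nutrition, was a clinical mixture of amino acids with electrolytes, glucose and a lipid emulsion, with trace elements and vitamins, and all groups shared the same serum-containing growth medium. The comparison of exposed with untreated spheroids asks how a short and a long exposure to TPN changed RNA levels, and the comparison of the untreated groups asks how the RNA levels changed with time in culture.

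Peroxisomes are small organelles bounded by a single membrane that import folded proteins from the cytosol. In hepatocytes they shorten very long and branched fatty acids and bile acid precursors by beta-oxidation, degrade phytanic acid by alpha-oxidation, make the first intermediates of ether lipids and detoxify glyoxylate. Their oxidases give off hydrogen peroxide, which catalase breaks down, and loss of the PEX proteins that build the organelle causes the Zellweger spectrum of disease. Genes of peroxisomal beta-oxidation are textbook targets of the fatty acid receptor PPARA.

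The values were FPKM, which scale a gene's fragments to the length of its transcript and to all mapped fragments of the library. Of the 67 genes, 57 had a mean of at least 0.5 FPKM over the 12 libraries and were tested among the 11713 genes that reached this level, and 10 fell below it. Fold changes are on the log2(FPKM + 0.1) scale, which understates the changes of low genes, and adjusted p values are from limma with the Benjamini-Hochberg method over all 11713 genes. A gene is said to have risen or fallen only at an adjusted p below 0.05. A library's FPKM summed to between 561657 and 583722, of which the 67 genes took 0.336% to 0.445%. The read depth of a library is unknown here. An estimate from steps of the low values in short genes put the deepest library at 1.12 times the shallowest. Only genes whose values all lay near whole multiples of 1 step were used, so this estimate cannot show that depths were alike. Hepatocyte markers such as ALB, APOA1 and SERPINA1 were among the most abundant genes, whereas CYP7A1, the rate-limiting enzyme of bile acid synthesis, stayed at or below 0.04 FPKM in every library. Of the stellate cell markers, DES stayed at or below 0.09 FPKM, VIM reached 17.1 FPKM and ACTA2, the highest, reached 58.4 FPKM. PTPRC, PECAM1, VWF and CLEC4F, markers of immune and endothelial cells that were not seeded, stayed at or below 0.23 FPKM, while CD68 and KRT19 were between 45.9 and 119.9 FPKM. In such bulk libraries, fewer cells of a type and less RNA per cell cannot be told apart.

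The genes differed widely in level. SOD1 and IDH1 led with means of 282 and 282 FPKM over the 12 libraries, followed by PRDX5 at 191, ECH1 at 145 and SOD2 at 140.4 FPKM, and these 5 genes held 47.0% of the summed FPKM of the set. In all, 6 genes had a mean of 100 FPKM or more, 30 lay between 10 and 100 FPKM, and 21 between 0.5 and 10 FPKM. The 5 leading genes are not restricted to peroxisomes: SOD1 is mostly cytosolic, SOD2 is the manganese superoxide dismutase of mitochondria, IDH1 makes NADPH in cytosol and peroxisomes, PRDX5 is a peroxiredoxin of several compartments, and ECH1 is an isomerase of both peroxisomes and mitochondria. HAO1 and HAO2, the glycolate and hydroxyacid oxidases of adult hepatocytes, were at 0 in 10 and 9 of the 12 libraries and never above 0.05 FPKM, XDH was at 0 in 10 and ABCD2 in 9, and none of these exceeded 0.05 FPKM in any library.

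RefSeq promoter sequences (GRCh38.p14) matched 50 of the 67 genes by gene number. The 250 bases before the start site are shown for PXMP2, which fell most after 144 h of TPN, and CAT, which rose most. Capitals mark each match on either strand to CCAAT, the CCAAT box, or GGGCGG, the Sp1 box, and a match on the opposite strand reads ATTGG or CCGCCC.
PXMP2, chr12:132687337-132687586, plus strand: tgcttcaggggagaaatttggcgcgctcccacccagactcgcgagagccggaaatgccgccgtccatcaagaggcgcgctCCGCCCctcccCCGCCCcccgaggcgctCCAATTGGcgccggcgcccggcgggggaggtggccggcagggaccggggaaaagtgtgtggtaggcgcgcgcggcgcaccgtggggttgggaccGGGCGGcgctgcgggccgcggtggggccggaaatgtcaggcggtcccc
CAT, chr11:34438684-34438933, plus strand: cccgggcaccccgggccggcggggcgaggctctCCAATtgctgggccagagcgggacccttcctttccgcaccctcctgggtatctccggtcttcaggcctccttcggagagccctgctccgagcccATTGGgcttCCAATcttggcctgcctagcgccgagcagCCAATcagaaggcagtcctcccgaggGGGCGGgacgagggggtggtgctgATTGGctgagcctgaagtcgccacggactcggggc
The PXMP2 stretch held 5 matches, of which 3 were GGGCGG, and its 2 matches to CCAAT overlapped on opposite strands. The CAT stretch held 6 matches, 5 to CCAAT and 1 to GGGCGG. The CCAAT box occurred in 20 of the 50 promoters (40.0%), against 33.0% of all 27305 promoters of this length and 35.4% of the 9625 that belong to genes tested. GGGCGG occurred in 32 (64.0%), against 42.3% and 68.0%. AGGTCA, the half-site bound by PPARs and related receptors, occurred in 3 (6.0%), against 12.1% and 8.57%, and TGACNNNGC, the core of the antioxidant response element, in 7 (14.0%), against 11.0% and 12.3%. Neither AGGTCA nor TGACNNNGC was present in the PXMP2 or CAT stretch. The 50 promoters include those of genes below the filter, which the 9625 leave out, so these shares are not like for like. Of such genes, HAO2 and XDH held TGACNNNGC and PXMP4 held AGGTCA. These matches describe the letters in the window and not binding sites.

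After 24 h of TPN, 0 of the 57 tested genes rose and 3 fell by limma, against 5.04% of all genes tested that rose and 5.46% that fell. At an unadjusted p below 0.05 there were 12 of the 57 genes, against 2803 of all 11713 genes tested. None passed both thresholds of the study, an adjusted p below 0.05 with a log2 fold change over 0.58 in either direction, which 0.914% of all genes passed. The median log2 fold change was -0.029 over the 57 genes and -0.0045 over all genes. The 3 that fell were IDH2, the NADPH-forming isocitrate dehydrogenase of mitochondria, by 11.9% (log2 fold change -0.18 ± 0.032 SE, adjusted p = 0.00201), AGXT, the transaminase that removes glyoxylate, by 11.5% (log2 fold change -0.18 ± 0.044 SE, adjusted p = 0.0208), and CRAT, carnitine acetyltransferase, by 11.0% (log2 fold change -0.17 ± 0.045 SE, adjusted p = 0.0287). In all 3 the exposed libraries lay below all untreated ones. Of the genes not called at 24 h, 12 also had groups that did not overlap, and the number among all genes tested was not counted. The AGXT call was lost without untreated replicate 1 or 3 or exposed replicate 1 or 2 at 24 h, with adjusted p values of 0.0139 to 0.0936 when each library was left out in turn, and the CRAT call when any 1 of the untreated replicates or exposed replicate 1 or 3 was left out (0.0217 to 0.121). Without the intensity trend the CRAT call was lost too (adjusted p = 0.053). The number that fell was 1 without untreated replicate 1 and 1 without exposed replicate 1. Of 8 tested hepatocyte markers 4 fell at 24 h, with a summed level of 10962 to 10998 FPKM in exposed against 11885 to 12248 FPKM in untreated libraries and ALB at -0.20 on the log2 scale, and 1 of 9 stellate cell markers fell. Their part in the falls of the peroxisome genes was not tested.

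After 144 h of TPN, 8 of the 57 genes rose (14.0%) and 15 fell (26.3%), against 24.2% and 28.3% of all genes tested. The falls were near the share of the whole table and the rises below it, with median log2 fold changes of -0.034 in the set and -0.018 in all genes. Those that rose, CAT, PRDX5, ACOX2, SOD2, SOD1, ECH1 and HSD17B4 among them, were all in beta-oxidation or antioxidant and redox metabolism. These roles were assigned with earlier results of these data known, and ECI2, IDH1, IDH2 and EPHX2 of the same roles fell. Of the 57 genes, PXMP2 was the only one past both thresholds, which 9.48% of all genes passed. In each of the 23 genes the exposed and untreated libraries of 144 h did not overlap, which also held for 2 that missed the adjusted p of 0.05, DECR2 among them. The number of all genes tested with such groups was not counted, so the lack of overlap adds nothing to the calls. The hepatocyte markers moved at the same time, with 7 of 8 tested markers lower, a summed level of 10305 to 11045 FPKM in exposed against 13235 to 14211 FPKM in untreated libraries, ALB at -0.65 on the log2 scale, and 5 of 9 stellate cell markers lower. Their part in the values of the peroxisome genes was not tested.

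**Figure D1:**
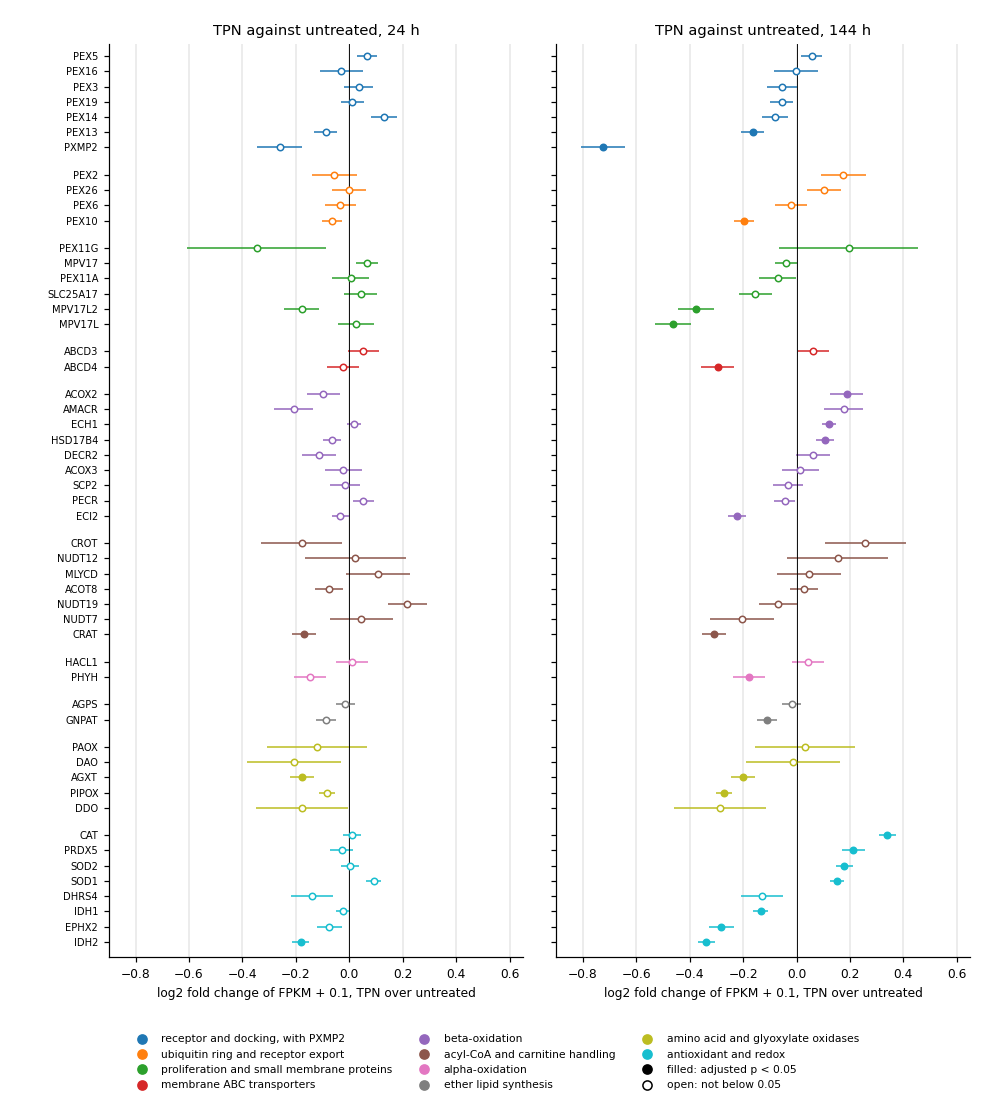
Log2 fold change of FPKM + 0.1 (x axis) of 52 of the 57 tested peroxisome genes, TPN-exposed over untreated spheroids at 24 h (left) and 144 h (right), grouped and colored by role. Points are limma estimates from 3 against 3 libraries, bars are SE, and filled points have an adjusted p below 0.05, 3 at 24 h and 22 at 144 h. PXMP2 lies lowest at 144 h, at -0.72, and CAT highest, at 0.34.

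In beta-oxidation, 4 of 10 tested genes rose and 1 fell at 144 h of TPN. ACOX2, the oxidase for branched chains and bile acid precursors, was at 10.2, 10.8 and 11.5 FPKM in untreated and 9.34, 9.91 and 11.1 FPKM in exposed spheroids at 24 h, and at 8.40, 8.47 and 8.40 FPKM in untreated and 9.79, 9.31 and 9.72 FPKM in exposed spheroids at 144 h. Its rise of 14.0% at 144 h (log2 fold change 0.19 ± 0.062 SE, adjusted p = 0.0216) was lost without exposed replicate 1 or 3 (0.009 to 0.0629 over the libraries left out). HSD17B4, the bifunctional enzyme of the following pair of steps, measured 90.6, 90.5 and 94.1 FPKM in the untreated libraries and 88.7, 84.0 and 90.6 FPKM in the exposed ones at 24 h. In the 144 h libraries it was 82.1, 81.4 and 78.1 FPKM without and 86.7, 85.1 and 88.3 FPKM with exposure. It rose by 7.69% at 144 h (log2 fold change 0.11 ± 0.034 SE, adjusted p = 0.0159), a call lost without untreated replicate 3 or exposed replicate 3 (0.00975 to 0.0712).

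For ECH1, an isomerase for unsaturated substrates, the 24 h libraries read 152, 157 and 150.3 FPKM untreated and 151, 158 and 156 FPKM exposed, and the 144 h libraries 130.4, 132 and 131 FPKM untreated and 142, 141 and 145 FPKM exposed. The exposed libraries at 144 h lay above the untreated ones, a rise of 8.77% (log2 fold change 0.12 ± 0.027 SE, adjusted p = 0.00175). ECI2, which also shifts double bonds in unsaturated substrates, moved the other way. ECI2 was at 125, 125 and 133 FPKM in untreated and 121, 128 and 125 FPKM in exposed spheroids at 24 h, and at 106, 103 and 109 FPKM in untreated and 92.1, 90.6 and 89.7 FPKM in exposed spheroids at 144 h. All exposed libraries at 144 h were below all others, a fall of 14.4% from the untreated ones (log2 fold change -0.22 ± 0.034 SE, adjusted p = 8.26e-05). SCP2, which encodes the thiolase for branched chains and a sterol carrier, measured 50.1, 53.2 and 49.6 FPKM in the untreated libraries and 50.6, 49.2 and 51.6 FPKM in the exposed ones at 24 h. After 144 h it read 42.7, 37.3 and 40.1 FPKM without and 40.0, 36.0 and 41.6 FPKM with exposure. Its groups overlapped at both times (log2 fold change -0.030 ± 0.056 SE, adjusted p = 0.672 at 144 h). By log2 fold change, the racemase AMACR (0.18, adjusted p = 0.0573), the reductases DECR2 (0.063, adjusted p = 0.432) and PECR (-0.045, adjusted p = 0.363) and the oxidase ACOX3 (0.014, adjusted p = 0.882) did not pass the test at 144 h.

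Among the antioxidant and redox genes, 4 of 8 tested rose and 3 fell at 144 h. For CAT, catalase, which breaks down hydrogen peroxide, the 24 h libraries read 75.6, 74.8 and 76.9 FPKM untreated and 75.2, 75.4 and 78.4 FPKM exposed, and the 144 h libraries 42.7, 41.0 and 43.3 FPKM untreated and 52.5, 52.6 and 55.7 FPKM exposed. At 24 h the groups overlapped. At 144 h each exposed library was above each untreated one but still below the 24 h libraries, a rise of 26.7% (log2 fold change 0.34 ± 0.033 SE, adjusted p = 1.51e-06). SOD1, the copper-zinc superoxide dismutase, was at 319.6, 314 and 305 FPKM in untreated and 326, 330.4 and 344 FPKM in exposed spheroids at 24 h, and at 231, 225 and 230.3 FPKM in untreated and 256, 251 and 256 FPKM in exposed spheroids at 144 h. The exposed libraries were the higher ones at both times, by 6.56% at 24 h (log2 fold change 0.091 ± 0.028 SE, adjusted p = 0.0509), which missed the threshold, and by 11.1% at 144 h (log2 fold change 0.15 ± 0.028 SE, adjusted p = 0.000418). SOD2 went from 124 ± 1.82 to 140.4 ± 1.06 FPKM (mean ± SD, n = 3, log2 fold change 0.18 ± 0.033 SE, adjusted p = 0.000487) and PRDX5 from 167 ± 6.04 to 194 ± 9.02 FPKM (log2 fold change 0.21 ± 0.042 SE, adjusted p = 0.000809) with exposure at 144 h.

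The NADPH-forming isocitrate dehydrogenases fell. IDH2 measured 115, 120.2 and 119 FPKM in the untreated libraries and 99.9, 105 and 107 FPKM in the exposed ones at 24 h. By 144 h the values were 89.2, 89.4 and 89.7 FPKM without and 71.8, 68.5 and 72.0 FPKM with exposure. The exposed libraries were lower at both times, by 20.9% at 144 h (log2 fold change -0.34 ± 0.032 SE, adjusted p = 1.07e-06). Its partner IDH1 went from 226 ± 6.22 to 206 ± 2.60 FPKM with 144 h of exposure (log2 fold change -0.13 ± 0.027 SE, adjusted p = 0.000814), and EPHX2, the soluble epoxide hydrolase, from 20.3 ± 0.532 to 16.7 ± 0.277 FPKM (log2 fold change -0.28 ± 0.046 SE, adjusted p = 0.000172). DHRS4, a carbonyl reductase with near-identical neighbouring copies that make its reads uncertain, had a log2 fold change of -0.13 (adjusted p = 0.186). NOS2, the inducible nitric oxide synthase, lay below the filter, at 0.03, 0.01 and 0.04 FPKM in untreated and 0.11, 0.11 and 0.16 FPKM in exposed libraries at 144 h. With no filter on low values it was the second gene of the set past both thresholds at 144 h (log2 fold change 0.84, adjusted p = 0.00248 among the genes then tested), at levels of at most 0.16 FPKM. XDH was at 0 in 5 of the 6 libraries at 144 h.

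**Figure D2:**
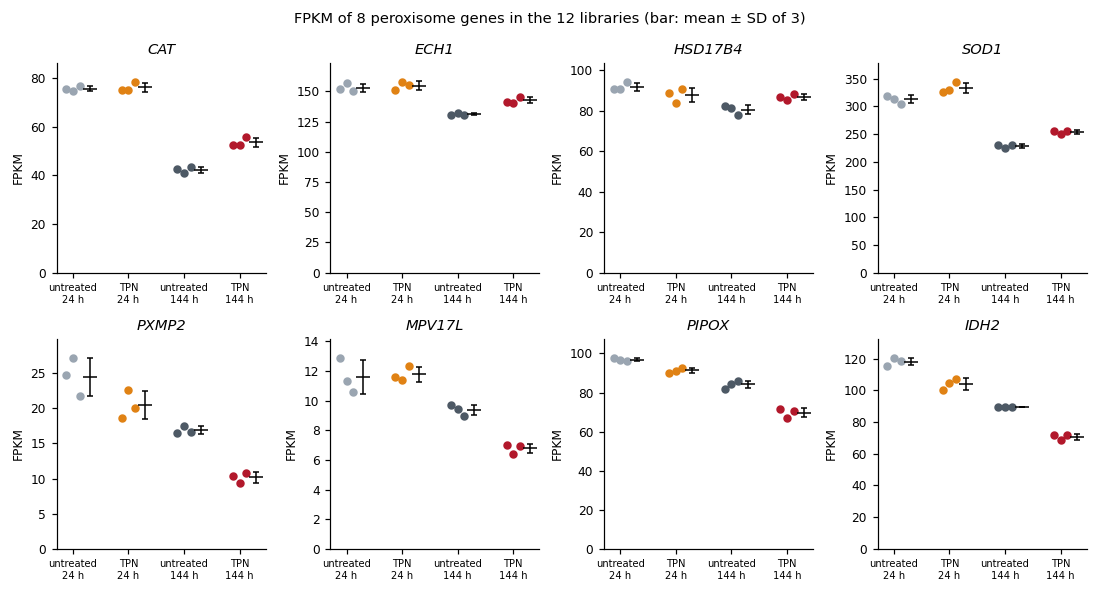
FPKM (y axes, from 0) of 8 peroxisome genes in each of the 12 libraries, by group. Points are libraries and the black bars the mean ± SD of 3. CAT, ECH1, HSD17B4 and SOD1 are higher in exposed than in untreated spheroids at 144 h, and PXMP2, MPV17L, PIPOX and IDH2 are lower, without overlap of the groups.

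The import receptor, docking and membrane insertion genes were grouped with PXMP2, a channel protein with none of these roles. Of these 7 tested genes 0 rose and 2 fell at 144 h, the docking gene PEX13 and PXMP2 itself. For PXMP2, of the peroxisomal membrane, the 24 h libraries read 24.7, 27.1 and 21.7 FPKM untreated and 18.6, 22.6 and 20.1 FPKM exposed, and the 144 h libraries 16.4, 17.6 and 16.7 FPKM untreated and 10.4, 9.32 and 10.8 FPKM exposed. At 24 h the exposed libraries overlapped the untreated ones (log2 fold change -0.26 ± 0.083 SE, adjusted p = 0.0636). At 144 h they were all lower than any other library, a fall of 39.6% (log2 fold change -0.72 ± 0.083 SE, adjusted p = 7.47e-06). PEX13, a docking protein, was at 12.5, 12.6 and 12.2 FPKM in untreated and 11.8, 11.1 and 12.2 FPKM in exposed spheroids at 24 h, and at 11.3, 11.1 and 11.3 FPKM in untreated and 9.98, 9.88 and 10.2 FPKM in exposed spheroids at 144 h. It fell by 10.9% at 144 h (log2 fold change -0.16 ± 0.043 SE, adjusted p = 0.00521). PEX5, the receptor for proteins with the carboxy-terminal import signal, measured 22.0, 21.9 and 21.9 FPKM in the untreated libraries and 22.6, 23.5 and 22.7 FPKM in the exposed ones at 24 h. In the 144 h libraries it was 19.8, 20.8 and 21.5 FPKM without and 21.9, 20.7 and 21.9 FPKM with exposure. Its groups overlapped at 144 h (log2 fold change 0.057 ± 0.039 SE, adjusted p = 0.238).

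For PEX14, the partner of PEX13 in docking, the 24 h libraries read 23.4, 26.0 and 26.8 FPKM untreated and 27.6, 27.2 and 28.4 FPKM exposed, and the 144 h libraries 27.6, 26.2 and 26.8 FPKM untreated and 24.8, 26.6 and 24.9 FPKM exposed. It was higher in exposed libraries at 24 h without passing the test (log2 fold change 0.13 ± 0.049 SE, adjusted p = 0.117) and overlapped at 144 h (log2 fold change -0.079 ± 0.049 SE, adjusted p = 0.187). The membrane insertion factors PEX3, PEX16 and PEX19 did not pass the test at 144 h, with log2 fold changes of -0.054, -0.0015 and -0.055 and adjusted p values of 0.431, 0.99 and 0.3. PEX10 and PEX2 belong to the ubiquitin ring that recycles the receptor. PEX10 was at 37.2, 37.2 and 38.8 FPKM in untreated and 35.8, 36.6 and 35.7 FPKM in exposed spheroids at 24 h, and at 22.8, 23.6 and 23.7 FPKM in untreated and 19.3, 21.0 and 21.0 FPKM in exposed spheroids at 144 h. It fell by 12.7% at 144 h (log2 fold change -0.20 ± 0.038 SE, adjusted p = 0.00065), the only one of 6 genes of the ring and the export machinery to do so. The log2 fold change was 0.17 for PEX2 (adjusted p = 0.0982), -0.021 for the export ATPase PEX6 (adjusted p = 0.782) and 0.10 for its anchor PEX26 (adjusted p = 0.195).

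Of the 7 genes for proliferation and small membrane proteins, 2 fell at 144 h, both of the PXMP2 and MPV17 protein family. MPV17L measured 12.9, 11.4 and 10.6 FPKM in the untreated libraries and 11.6, 11.4 and 12.4 FPKM in the exposed ones at 24 h. After 144 h it read 9.70, 9.42 and 8.98 FPKM without and 7.01, 6.41 and 6.91 FPKM with exposure. At 24 h its groups overlapped, and at 144 h it fell by 27.7% (log2 fold change -0.46 ± 0.067 SE, adjusted p = 6.64e-05). For MPV17L2, a mitochondrial member of the family, the 24 h libraries read 14.5, 15.1 and 13.5 FPKM untreated and 12.2, 12.9 and 12.9 FPKM exposed, and the 144 h libraries 8.11, 8.83 and 8.73 FPKM untreated and 6.02, 7.24 and 6.49 FPKM exposed. The exposed libraries were the lower ones at both times, without passing the test at 24 h (log2 fold change -0.18 ± 0.066 SE, adjusted p = 0.111) and with a fall of 23.1% at 144 h (log2 fold change -0.38 ± 0.066 SE, adjusted p = 0.000323). MPV17, the founding member and a mitochondrial inner membrane protein, was at 44.2, 48.1 and 44.3 FPKM in untreated and 46.6, 47.5 and 49.0 FPKM in exposed spheroids at 24 h, and at 46.5, 42.8 and 44.9 FPKM in untreated and 44.5, 43.6 and 42.4 FPKM in exposed spheroids at 144 h. Its groups overlapped at both times (log2 fold change -0.041 ± 0.041 SE, adjusted p = 0.429 at 144 h). By log2 fold change, the elongation factors PEX11A (-0.071, adjusted p = 0.413) and PEX11G (0.19, adjusted p = 0.554) and the cofactor carrier SLC25A17 (-0.15, adjusted p = 0.0521) did not pass the test at 144 h.

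The ABC transporters carry acyl-CoA esters across the membrane. ABCD3, which brings in branched-chain acids and bile acid precursors, measured 46.6, 45.6 and 53.0 FPKM in the untreated libraries and 48.6, 49.4 and 52.3 FPKM in the exposed ones at 24 h. By 144 h the values were 31.8, 30.8 and 29.1 FPKM without and 33.6, 30.0 and 32.2 FPKM with exposure. Its exposed and untreated groups overlapped at both times (log2 fold change 0.063 ± 0.058 SE, adjusted p = 0.39 at 144 h). For ABCD4, a family member known for cobalamin transport from lysosomes, the 24 h libraries read 22.2, 22.6 and 21.6 FPKM untreated and 21.3, 24.1 and 20.0 FPKM exposed, and the 144 h libraries 22.1, 23.3 and 23.1 FPKM untreated and 17.9, 17.9 and 19.9 FPKM exposed. It fell by 18.5% at 144 h (log2 fold change -0.30 ± 0.061 SE, adjusted p = 0.00107). ABCD2 was at 0 to 0.01 FPKM in the 144 h libraries.

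Of the 7 tested genes of acyl-CoA and carnitine handling, 1 fell at 144 h. CRAT, which links short acyl groups to carnitine, was at 26.8, 26.7 and 27.4 FPKM in untreated and 22.5, 25.1 and 24.5 FPKM in exposed spheroids at 24 h, and at 25.4, 25.4 and 24.4 FPKM in untreated and 20.5, 19.2 and 20.9 FPKM in exposed spheroids at 144 h. It was lower in exposed spheroids at both times, by 19.2% at 144 h (log2 fold change -0.31 ± 0.045 SE, adjusted p = 6.8e-05). Log2 fold changes were 0.26 for CROT, the octanoyltransferase (adjusted p = 0.17), 0.028 for the thioesterase ACOT8 (adjusted p = 0.671), -0.20, 0.15 and -0.069 for the nucleotide hydrolases NUDT7, NUDT12 and NUDT19 (adjusted p of 0.167, 0.518 and 0.445), and 0.047 for the decarboxylase MLYCD (adjusted p = 0.762). BAAT, which conjugates bile acids to glycine or taurine, lay below the filter, at 0.47, 0.32 and 0.2 FPKM in untreated and 0.66, 0.35 and 0.71 FPKM in exposed libraries at 144 h, and these groups overlapped.

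Alpha-oxidation was covered by PHYH and HACL1. PHYH, the phytanoyl-CoA hydroxylase, measured 22.7, 23.8 and 23.7 FPKM in the untreated libraries and 20.8, 23.3 and 19.4 FPKM in the exposed ones at 24 h. In the 144 h libraries it was 33.3, 30.2 and 31.0 FPKM without and 28.4, 28.4 and 26.5 FPKM with exposure. It fell by 11.7% with TPN at 144 h (log2 fold change -0.18 ± 0.059 SE, adjusted p = 0.0207), a call lost without untreated replicate 1 or exposed replicate 3 (0.00589 to 0.0897 over the libraries left out). Its partner, the lyase HACL1, did not pass the test (log2 fold change 0.042 ± 0.061 SE, adjusted p = 0.588). GNPAT and AGPS carry out the first steps of ether lipid synthesis. For GNPAT, the acyltransferase of the first step, the 24 h libraries read 32.0, 32.7 and 32.7 FPKM untreated and 31.9, 28.8 and 30.9 FPKM exposed, and the 144 h libraries 29.0, 28.6 and 27.9 FPKM untreated and 26.2, 26.7 and 26.3 FPKM exposed. The exposed libraries were lower at both times, without passing the test at 24 h (log2 fold change -0.088 ± 0.037 SE, adjusted p = 0.166) and with a fall of 7.48% at 144 h (log2 fold change -0.11 ± 0.037 SE, adjusted p = 0.0228), which was lost without untreated replicate 1 or 2 or exposed replicate 1 or 3 (0.00901 to 0.0718) and with quantile normalization (adjusted p = 0.0845). AGPS, the synthase of the next step, was at 23.3, 23.8 and 24.0 FPKM in untreated and 23.3, 23.2 and 23.9 FPKM in exposed spheroids at 24 h, and at 21.2, 20.0 and 20.2 FPKM in untreated and 20.3, 20.8 and 19.6 FPKM in exposed spheroids at 144 h. Its groups overlapped at both times (log2 fold change -0.017 ± 0.035 SE, adjusted p = 0.709 at 144 h).

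The amino acid and glyoxylate oxidases, grouped with the transaminase AGXT, gave 2 falls among 5 tested genes at 144 h, in PIPOX and in AGXT itself. PIPOX, which oxidizes pipecolic acid and sarcosine, measured 97.6, 96.8 and 96.0 FPKM in the untreated libraries and 90.2, 91.0 and 92.6 FPKM in the exposed ones at 24 h. After 144 h it read 82.0, 84.5 and 85.8 FPKM without and 71.5, 67.0 and 70.4 FPKM with exposure. The exposed libraries were lower at both times, by 5.68% at 24 h (log2 fold change -0.084 ± 0.030 SE, adjusted p = 0.0965), which did not pass, and by 17.2% at 144 h (log2 fold change -0.27 ± 0.030 SE, adjusted p = 4.96e-06). For AGXT the 24 h libraries read 22.7, 21.6 and 23.3 FPKM untreated and 18.9, 19.9 and 20.9 FPKM exposed, and the 144 h libraries 27.6, 28.6 and 27.1 FPKM untreated and 24.7, 23.4 and 24.4 FPKM exposed. It fell by 13.0% at 144 h (log2 fold change -0.20 ± 0.044 SE, adjusted p = 0.00185). Log2 fold changes were -0.013 (adjusted p = 0.957) and -0.29 (adjusted p = 0.18) for DAO and DDO, which oxidize D-amino acids, and 0.033 (adjusted p = 0.897) for the polyamine oxidase PAOX.

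The effect of TPN differed between the exposure times in 17 of the 57 genes by the interaction term of limma, 7 toward higher and 10 toward lower values at 144 h, against 14.1% and 16.3% of all genes tested. None differed by over 0.58 on the log2 scale. AMACR had the largest of the 7 upward differences. It was at 7.18, 7.22 and 7.46 FPKM in untreated and 6.40, 6.53 and 5.96 FPKM in exposed libraries at 24 h, and at 4.02, 3.87 and 3.87 FPKM untreated and 4.75, 3.89 and 4.75 FPKM exposed at 144 h. Its log2 fold change was -0.21 at 24 h and 0.18 at 144 h, neither past the test, with a difference of 0.39 ± 0.10 SE, adjusted p = 0.0128. The log2 fold change of CAT went from 0.010 at 24 h to 0.34 at 144 h (difference 0.33 ± 0.047 SE, adjusted p = 0.000166). Downward, that of MPV17L went from 0.026 to -0.46 (difference -0.49 ± 0.095 SE, adjusted p = 0.00179) and that of PXMP2 from -0.26 to -0.72 (difference -0.46 ± 0.12 SE, adjusted p = 0.00945). For IDH2, which fell at both times, the log2 fold change was -0.18 at 24 h and -0.34 at 144 h (difference -0.15 ± 0.045 SE, adjusted p = 0.0183). The number of genes with a difference was 11 without exposed replicate 1 of 144 h.

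**Figure D3:**
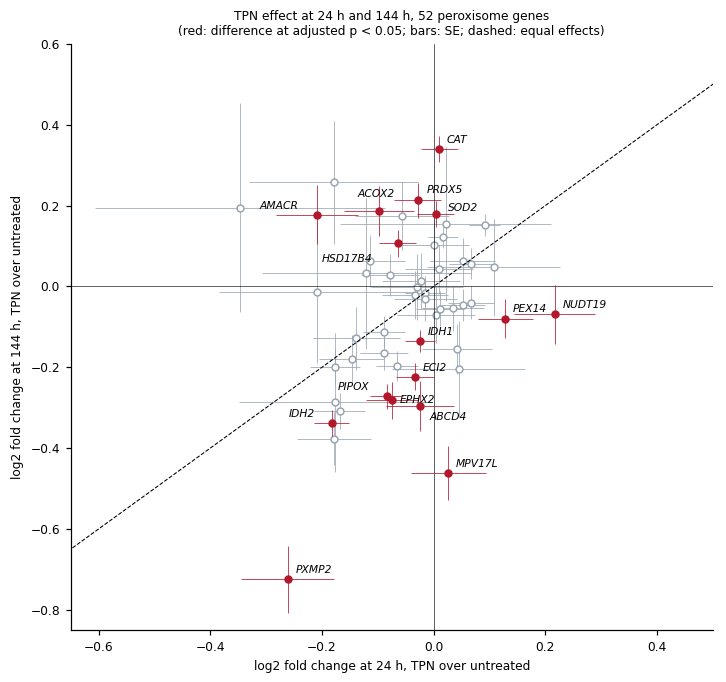
Log2 fold change with TPN at 24 h (x axis) and at 144 h (y axis) of 52 of the 57 tested peroxisome genes, with SE bars, and the dashed line marks equal effects. The 16 red genes differ between the times at an adjusted p below 0.05, and CAT, AMACR, MPV17L and PXMP2 lie farthest from the line among them.

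With time in culture, 39 of the 57 genes fell and 2 rose in untreated spheroids, against 52.4% and 20.1% of all genes tested. The whole table shifted down, with a median log2 fold change of -0.18 over all genes and -0.27 over the 57 genes, so values are also given relative to that median. When libraries were instead scaled by the median ratio of genes, the median of all genes was -0.012, 24 of the 57 genes fell and 7 rose, against 34.2% and 32.7% of all genes. The 26 genes called in both scalings included PHYH and AGXT as the risen ones. The untreated libraries serve both here and in the TPN comparisons, so the 2 sets of values are not independent. Of the stellate cell markers, 8 of 9 tested fell, with summed levels of 75.8 to 80.7 FPKM at 144 h against 137.8 to 145.7 FPKM at 24 h. Of the 8 hepatocyte markers 3 rose and 3 fell, and their summed level was 13235 to 14211 FPKM at 144 h against 11885 to 12248 FPKM at 24 h, with ALB at 0.46, TF at 0.62 and APOB at -0.66 on the log2 scale. The part of both marker sets in the values of the peroxisome genes was not tested.

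The largest falls were in DAO, from 2.58 ± 0.636 to 1.00 ± 0.106 FPKM (log2 fold change -1.26 ± 0.18 SE, adjusted p = 1.98e-05), and PEX11G, from 1.00 ± 0.342 to 0.43 ± 0.03 FPKM (log2 fold change -1.00 ± 0.26 SE, adjusted p = 0.0033), both low in level. Of the more abundant genes, AMACR, an enzyme for branched chains, fell by 46.2% (log2 fold change -0.88 ± 0.073 SE, adjusted p = 1.3e-07) and CAT by 44.2% (log2 fold change -0.84 ± 0.033 SE, adjusted p = 9.44e-11), which was -0.66 relative to the median of all genes and on the log2 scale -0.67 (adjusted p = 8.23e-10) with median-ratio scaling. On the log2 scale, CROT (-0.82), MPV17L2 (-0.74), PEX10 (-0.69), ABCD3 (-0.66) and IDH1 (-0.63) completed the 9 genes with a fall of over 0.58, and relative to the median of all genes they lay at -0.64, -0.56, -0.50, -0.47 and -0.45. Those 9 were among 57 genes, and 1434 of all 11713 genes tested fell as far at an adjusted p below 0.05. PHYH rose by 34.4% (log2 fold change 0.42 ± 0.059 SE, adjusted p = 1.82e-05) and AGXT by 23.4% (log2 fold change 0.30 ± 0.044 SE, adjusted p = 3.03e-05), the only genes of the set that rose without rescaling. In beta-oxidation, 9 of 10 tested genes fell, by 0.19 (HSD17B4) to 0.88 (AMACR) on the log2 scale, with PECR at a log2 fold change of 0.027 (adjusted p = 0.554). With median-ratio scaling, the log2 fold change of HSD17B4 was -0.014 (adjusted p = 0.715), that of ECH1 -0.049 (adjusted p = 0.127) and that of ACOX3 -0.16 (adjusted p = 0.0582), none of them past the test.

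Among the antioxidant and redox genes, 7 of 8 fell with time, which by log2 fold change were SOD1 (-0.45), EPHX2 (-0.41), IDH2 (-0.40), PRDX5 (-0.28) and SOD2 (-0.26) beside CAT and IDH1. For the genes that rose with 144 h of TPN, the untreated libraries of 144 h enter both comparisons, and the log2 fold changes stand side by side as -0.84 with time and 0.34 with TPN for CAT, -0.45 and 0.15 for SOD1, and -0.36 and 0.19 for ACOX2. The exposed means at 144 h were 53.6 FPKM for CAT against 75.8 FPKM in untreated spheroids at 24 h, 254 against 313 for SOD1, and 9.61 against 10.8 for ACOX2. CRAT fell by 7.14% with time (log2 fold change -0.11 ± 0.045 SE, adjusted p = 0.0467) and turned to a log2 fold change of 0.067 (adjusted p = 0.197) with median-ratio scaling, and PEX13 (log2 fold change -0.15 ± 0.043 SE, adjusted p = 0.00671) turned to 0.025 (adjusted p = 0.613). The CRAT call was lost when any 1 of the 6 untreated libraries, exposed replicate 3 of 24 h or exposed replicate 1 of 144 h was left out (0.0242 to 0.141 over the libraries left out), and that of NUDT7 (log2 fold change -0.34, adjusted p = 0.0204) without untreated replicate 2 of 24 h or untreated replicate 1 or 2 of 144 h (0.000377 to 0.109).

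**Figure D4:**
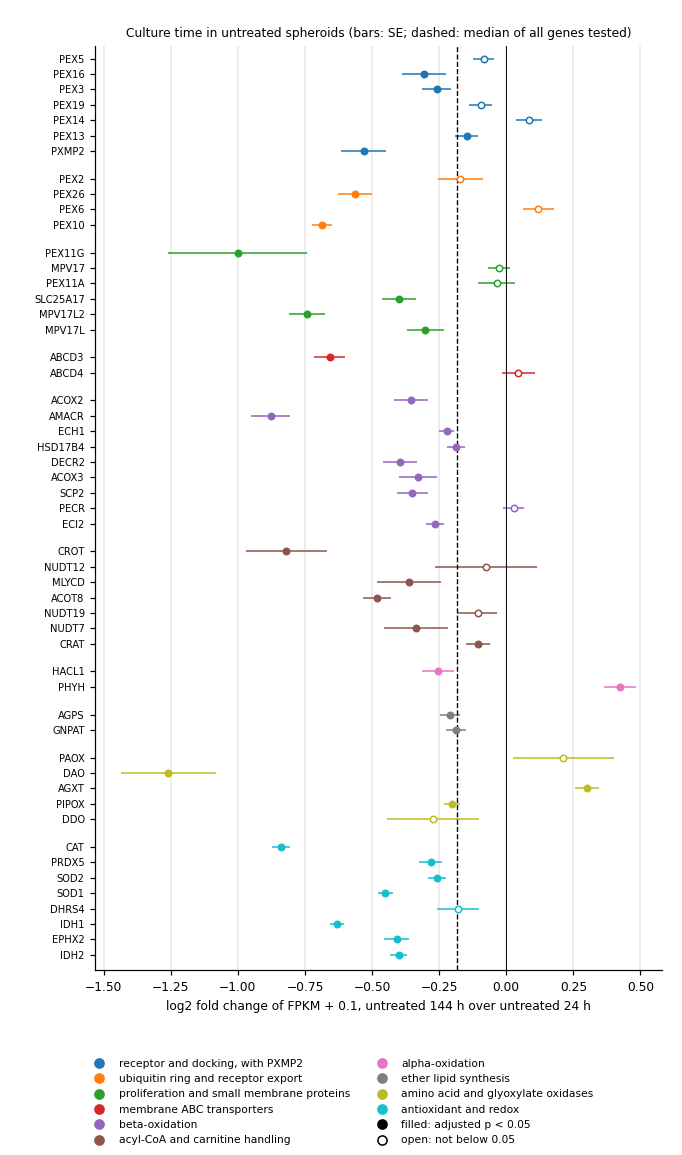
Log2 fold change of FPKM + 0.1 (x axis) of 52 of the 57 tested peroxisome genes, untreated spheroids of 144 h over those of 24 h, grouped and colored by role. Bars are SE, filled points have an adjusted p below 0.05, and the dashed line is the median of all genes tested, -0.18. PHYH and AGXT are the only filled points above 0, and DAO lies lowest at -1.26.

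Several of the genes below the filter were also lower at 144 h. FAR1, which makes the fatty alcohols of ether lipids, was at 0.13, 0.17 and 0.3 FPKM in untreated and 0.19, 0.18 and 0.15 FPKM in exposed libraries at 24 h, and at 0.01, 0.03 and 0.03 FPKM untreated and 0.02, 0.01 and 0.02 FPKM exposed at 144 h. PXMP4, a membrane protein, was at 0.19, 0.14 and 0.11 FPKM untreated and 0.16, 0.17 and 0.11 FPKM exposed at 24 h, and at 0.01, 0 and 0.01 FPKM untreated and 0, 0 and 0.04 FPKM exposed at 144 h. PEX7, the receptor for proteins with the amino-terminal import signal, was listed at 0 in the 3 untreated libraries of 144 h after 0.13, 0.18 and 0.03 FPKM at 24 h, and the exposed libraries were at 0.05, 0.09 and 0.05 FPKM at 24 h and 0, 0 and 0.05 FPKM at 144 h. For FAR1 and PXMP4, every library of 24 h was above every library of 144 h. With no filter, the log2 fold change of FAR1 over time was -1.25 (adjusted p = 6.97e-05) and that of PXMP4 -1.20 (adjusted p = 5.79e-05). Over the same time COL1A1 went from 14.1, 16.3 and 14.9 to 2.38, 1.68 and 1.69 FPKM and VIM from 14.0, 17.1 and 15.9 to 2.32, 1.74 and 3.25 FPKM in untreated libraries. These were among the largest falls of the 9 tested stellate cell markers. PDGFRB had means of 3.10 and 3.08 FPKM (log2 fold change -0.0075, adjusted p = 0.932) and ACTA2 of 57.8 and 47.9 FPKM (log2 fold change -0.27, adjusted p = 3.4e-05). The part of stellate cells in the low genes was not tested. FAR2 was at 0 in 8 of the 12 libraries and at most at 0.05 FPKM.

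**Figure D5:**
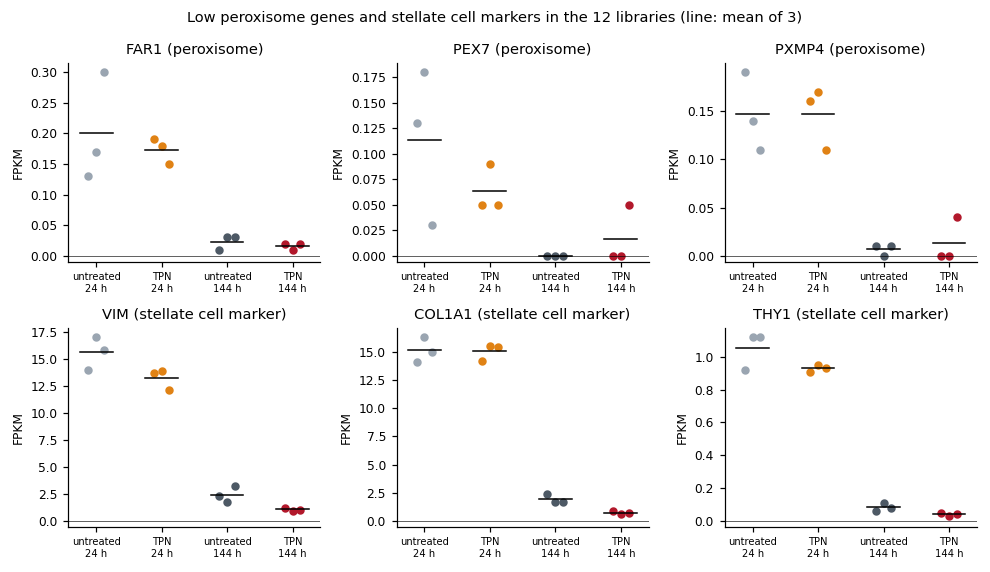
FPKM (y axes) in each of the 12 libraries of FAR1, PEX7 and PXMP4, peroxisome genes below the filter (top), and of the stellate cell markers VIM, COL1A1 and THY1 (bottom). These markers had the largest falls over time among the 9 tested. Points are libraries and lines the mean of 3. All 6 genes are lower at 144 h than at 24 h in the group means, at levels of at most 0.30 FPKM in the top row.

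Related genes outside the set gave the following values at 144 h of TPN, when 24.2% of all genes tested rose and 28.3% fell. Of the 13 KEGG Peroxisome genes left out, 4 rose and 5 fell, with the acyl-CoA synthetases ACSL5 (0.94) and ACSL1 (0.40), the mevalonate kinase MVK (-0.39) and the peroxiredoxin PRDX1 (0.37) largest on the log2 scale among those called. Of these 9 calls 3 were lost in at least 1 alternative setting or with a library left out. Of 7 other peroxisomal enzymes and proteases, 2 rose and 1 fell, and 1 of these 3 calls was lost with some libraries left out. By log2 fold change, the larger of these were in the fatty aldehyde dehydrogenase ALDH3A2 (0.41, adjusted p = 9.63e-08) and ISOC1 (-0.43, adjusted p = 1.94e-05). Of 8 genes for division and tethering, 1 rose, VAPB (log2 fold change 0.21), and 1 fell, DNM1L (log2 fold change -0.16), the dynamin of organelle fission, a call lost without untreated replicate 2 or exposed replicate 3 of 144 h (adjusted p of 0.0115 to 0.072). Of 6 genes linked to the removal of peroxisomes by autophagy, 3 rose and 2 fell, USP30 (log2 fold change -0.33, adjusted p = 0.000669) and NBR1 (-0.10, adjusted p = 0.0415). The NBR1 call was lost in 12 alternatives, libraries left out included, with median-ratio scaling, quantile normalization, no trend and the replicate block among them (adjusted p of 0.0166 to 0.145 over all alternatives). SQSTM1, the receptor p62 of selective autophagy, was at 121, 129 and 119 FPKM in untreated and 243, 252 and 253 FPKM in exposed libraries at 24 h, and at 131, 127 and 128 FPKM untreated and 339.6, 342 and 365 FPKM exposed at 144 h, where it rose (log2 fold change 1.44 ± 0.036 SE, adjusted p = 2.18e-12).

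Of 7 regulators of peroxisome genes, 2 rose and 3 fell at 144 h, against 24.2% and 28.3% of all genes tested. PPARA, the receptor tied to peroxisomal beta-oxidation in liver, was at 7.87, 7.82 and 7.56 FPKM in untreated and 8.99, 8.50 and 8.07 FPKM in exposed libraries, and rose (log2 fold change 0.13 ± 0.051 SE, adjusted p = 0.0406). Its call was lost when any 1 of the 3 untreated libraries of 144 h, exposed replicate 1 or 2 of 144 h or exposed replicate 1 of 24 h was left out (adjusted p of 0.0173 to 0.168), and also with equal FPKM sums (0.0888), with only the groups compared in the fit (0.081) and with the replicate block (0.0547). On the log2 scale PPARD rose (0.27, adjusted p = 0.00123), while PPARG (-0.35, adjusted p = 0.00156), HNF4A (-0.35, adjusted p = 2.36e-07) and NCOR1 (-0.17, adjusted p = 0.00704) fell. Of 16 genes of mitochondrial beta-oxidation, 7 rose and 3 fell, and 1 of these 10 calls was lost with 1 library left out. CPT1A, which admits long acyl groups into mitochondria, rose (log2 fold change 0.96 ± 0.050 SE, adjusted p = 3.4e-09), as did ETFDH (log2 fold change 0.55 ± 0.062 SE, adjusted p = 5.91e-06), whereas HADH fell (log2 fold change -0.64 ± 0.039 SE, adjusted p = 1.64e-08) and DECR1 fell (log2 fold change -0.45 ± 0.069 SE, adjusted p = 9.89e-05). These lists are given by their counts, and none was compared with the peroxisome set by a test.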

How the data were processed

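RNA of pooled spheroids was sequenced on DNBSEQ, reads were filtered with SOAPnuke and aligned to GRCh38 with HISAT2 2.0.4 and to transcripts with Bowtie2 2.2.5, and RSEM gave gene levels. The authors deposited one table of FPKM for the 12 libraries. The authors ran DESeq2, which models counts that are not used here, and limma was used in its place.

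Of 16725 lines read, 20 named no gene and were left out. Genes with a mean of at least 0.5 FPKM entered a limma fit (version 3.58.1, R 4.3.3) of log2(FPKM + 0.1), using lmFit and eBayes with an intensity trend and all 4 groups. Contrasts were TPN against untreated at 24 h and at 144 h, their difference (the interaction) and untreated 144 h against 24 h, with p values adjusted by the Benjamini-Hochberg method over 11713 genes. Tests were two-sided. A call needed an adjusted p below 0.05, and the stricter call also an absolute log2 fold change above 0.58. The fit was checked on simulated data. Python 3.11.15, numpy 2.4.6, pandas 2.3.3 and matplotlib 3.10.9 were used for summaries and plots.

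Groups were taken from the labels. The study describes the 3 libraries of a group as independent experiments. Each p value rests on the spread between libraries within groups, estimated from all 4 groups together and moderated toward genes of similar level. At most 0.672% of the values above 1 FPKM were equal between any 2 libraries. Absolute depth is unknown, because the deposited FPKM do not give it. In 34 short genes examined, 95.1% of the 247 values above 0 lay near whole multiples of 1 step (within 0.02 FPKM plus 6%). Relative depth came from the 29 of them whose values all did, with a step of at least 0.05 FPKM. This tolerance is wide for such small steps, so neither the share nor the depths can show that the libraries were equally deep.

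The members, roles and other gene lists were chosen with earlier results of these data known. FPKM of every library are given for genes past both thresholds, for the 2 called genes with the largest change at 144 h and the most abundant gene in each role, and for well-known genes. The values of 5 of the tested genes are not reported here, while counts over the set include them. AMACR, FAR1, PXMP4, PEX7, NOS2, BAAT, SQSTM1 and PPARA were given by library after their values were seen, as were those of VIM and COL1A1. Of each other list at most 4 called genes with the largest changes are named, and PPARA, NBR1, PDGFRB and ACTA2 were named beyond these, after their values were seen. Promoters were taken from RefSeq. The table places 6 of the genes on scaffolds, and its coordinates are not used here. Alternatives were other scalings (equal FPKM sums, median ratio, quantile), other filters and pseudocounts, no trend, only the groups compared, the replicate number as a block and each library left out in turn.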

Additional observations from a re-analysis of the deposited data

Results flagged for a closer look

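In 17 peroxisome genes, 16 of them given here, the effect of TPN differed between the exposure times by limma's interaction term. Of the 57 tested genes, 12.3% differed upward and 17.5% downward, near the 14.1% and 16.3% of all genes tested. Differences are given on the log2 scale as the effect at 144 h less the effect at 24 h. The difference was downward for MPV17L (-0.49), PXMP2 (-0.46), NUDT19 (-0.29), ABCD4 (-0.27), PEX14 (-0.21), EPHX2 (-0.21), ECI2 (-0.19), PIPOX (-0.19), IDH2 (-0.15) and IDH1 (-0.11). It was upward for HSD17B4 (0.17), SOD2 (0.18), PRDX5 (0.24), ACOX2 (0.285), CAT (0.33) and AMACR (0.39).

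For 10 of these 16 genes the call held with each library left out. The ABCD4 call ended without untreated replicate 3 or exposed replicate 2 of 24 h, or untreated replicate 2 or 3 or exposed replicate 1 or 2 of 144 h (adjusted p of 0.00928 to 0.0653 over the libraries left out). That of ACOX2 ended without untreated replicate 3 or exposed replicate 1 or 2 of 24 h, or exposed replicate 1 of 144 h (0.00552 to 0.0641). That of EPHX2 ended without untreated replicate 2 or exposed replicate 3 of 24 h, or untreated replicate 1 or exposed replicate 1 of 144 h (0.00988 to 0.0708). For IDH1 the call ended without untreated replicate 1 or 3 or exposed replicate 1 or 3 of 24 h, or untreated replicate 1 or 3 or exposed replicate 2 or 3 of 144 h (0.0187 to 0.0979). For NUDT19 it ended without untreated replicate 1 or 2, exposed replicate 1 or 2 of 24 h, or untreated replicate 1 or 3 or exposed replicate 1 or 2 of 144 h (0.0206 to 0.111). For PEX14 it ended without untreated replicate 1 or exposed replicate 1 or 3 of 24 h, or untreated replicate 1 or 3 or exposed replicate 1 or 3 of 144 h (0.018 to 0.077). Other settings also ended calls. Without the intensity trend the adjusted p was 0.0522 for ABCD4, 0.0913 for IDH1, 0.0635 for NUDT19 and 0.0586 for PEX14. With no filter it was 0.0767 for NUDT19 and 0.0519 for PEX14, with median-ratio scaling 0.0525 for NUDT19, and with quantile normalization 0.0623 for PEX14.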

How the results depend on the processing

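After 24 h of TPN the 3 changed peroxisome genes became 5 of 46 tested (1 higher, 4 lower) where means had to reach 5 FPKM, and were 2 to 4 under the other settings and 1 to 4 with a library left out. After 144 h the 23 changed genes were 23 to 25 under other settings and 19 to 24 with a library left out. The genes past both thresholds at 144 h were 2 in place of 1 with no filter, and 1 with each library left out. At 24 h they were 0 throughout. The 17 differences between the times were 13 to 18 under other settings, with 13 without the trend, and 11 to 15 with a library left out. The 41 genes changed with culture time were 31 to 45 under other settings and 40 to 43 with a library left out. Median-ratio scaling gave 7 higher and 24 lower and quantile normalization 7 higher and 28 lower, and they ended 13 and 10 of these calls without a change of sign. The fold change over time turned to 0.025 for PEX13 and 0.067 for CRAT with median-ratio scaling and to 0.047 for CRAT with quantile normalization, on the log2 scale. The cause was not tested. With the replicate block the counts were 3, 23, 15 and 42, the calls of IDH1 and NUDT19 on the difference and of CRAT over time being lost among the peroxisome genes, and of PPARA and NBR1 at 144 h of TPN among the others. Deviations of same-numbered libraries correlated at -0.083 to 0.151 and those of differently numbered ones at -0.163 to 0.077. The highest values were thus between same-numbered libraries, but not every library was correlated best with its own number. Whether the numbers pair the samples was not settled by this, and the replicate block was kept as an alternative only. Genes below about 1 FPKM rest on few fragments.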
